A study of Bos taurus with 10 samples.

Results

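Glycolysis turns glucose into pyruvate, and most of its controlled steps are carried out by families of isoenzymes that tissues use in different proportions. Glucose enters cells through facilitative transporters, is trapped by hexokinase, is committed to glycolysis by phosphofructokinase, leaves the pathway as pyruvate through pyruvate kinase, and is exchanged with lactate by lactate dehydrogenase. Adult skeletal muscle is known for hexokinase 2, the muscle phosphofructokinase, the muscle splice form of pyruvate kinase and the transporter GLUT4, whereas proliferating and pluripotent cells are known for GLUT1, GLUT3 and high lactate dehydrogenase A. The genes described here are 10 of the 21130 rows of the deposited table, chosen by symbol: the hexokinases Hk1 and Hk2, the phosphofructokinases Pfkl, Pfkm and Pfkp, the pyruvate kinase Pkm, the lactate dehydrogenases Ldha and Ldhb, and the glucose transporters Slc2a1 (GLUT1) and Slc2a3 (GLUT3). Each of the 10 symbols had exactly 1 row, and all 10 passed the filter on low values, at least 1 FPKM in at least 3 libraries. Their NCBI gene identifiers in the table are 15275 (Hk1), 15277 (Hk2), 18641 (Pfkl), 18642 (Pfkm), 56421 (Pfkp), 18746 (Pkm), 16828 (Ldha), 16832 (Ldhb), 20525 (Slc2a1) and 20527 (Slc2a3), and the table gives no coordinates.

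The series holds 10 RNA-seq libraries, all labelled as cattle muscle. Of these, 7 are labelled MSTN+/-, heterozygous at the gene that encodes myostatin, which limits muscle growth, and 3 wild type. All are labelled 24 months of age. The breed, the sex, the MSTN allele, how it was made and the number of animals are not stated in the sources used here, and the spread behind each p-value is that of these libraries and may be technical. Values are FPKM, fragments mapped to a gene scaled by its transcript length and by the size of the library, so that they allow levels of paralogs to be set side by side.

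The table did not match its labels. Of its rows, 19415 were described as Mus musculus genes, among them all 10 described here, and 0 gene identifiers and 0 of 30319 transcript accessions were in the cattle RefSeq table. Of 14 skeletal muscle markers, 2 reached 10 FPKM in any library, and Ckm, the muscle creatine kinase gene, lay at 0.14 to 1.02 FPKM in MSTN+/- libraries, against 0.13 to 1.07 FPKM in wild-type ones. Of the muscle markers tested, which were only Acta1, Myh1, Myh2, Mb and Actn3, 2 rose, where 31.8% of all genes were called higher. Myh2 was at 5.73 to 15.3 FPKM in MSTN+/- libraries, against 0 to 0.14 FPKM in wild-type ones (limma adjusted p = 4.418e-06). Myh1 was at 1.5 to 5.88 FPKM in MSTN+/- libraries, against 0.08 to 0.76 FPKM in wild-type ones (limma adjusted p = 0.00137). Both passed the filter on low values only through MSTN+/- libraries. Of the 14 markers, 6 were below wild-type replicates 2 and 3 in every MSTN+/- library, and 2, Myh1 and Myh2, above both. Among those 6, Tnnc2 was at 0 to 0.43 FPKM in MSTN+/- libraries, against 0.88 and 2.05 FPKM in those replicates, and was not tested. Summed over 10 pluripotency markers, the level was 911 to 1554 FPKM in MSTN+/- libraries, against 2.31, 2643 and 2993 FPKM in replicates 1, 2 and 3 of the wild type. The markers did not move together: Pou5f1, at 633 to 848 FPKM in MSTN+/- libraries, was above wild-type replicates 2 and 3 at 346 and 533 FPKM, while 8 of the 10, such as Dppa5a at 5.21 to 151 FPKM in MSTN+/- libraries, against 829 and 977 FPKM in those replicates, were below both in every MSTN+/- library. Summed over 10 fibroblast markers, the level was 2855 to 5897 FPKM in MSTN+/- libraries, against 6202, 384 and 265 FPKM in replicates 1, 2 and 3 of the wild type. These markers did not move together either. Col1a1 was at 969 to 2329 FPKM in MSTN+/- libraries, against 3017, 110 and 72.2 FPKM in those replicates. Dcn was at 169 to 324 FPKM in MSTN+/- libraries, against 24.3, 33.0 and 8.27 FPKM. Wild-type replicate 1 therefore stood apart from wild-type replicates 2 and 3 in both sums, but not for every fibroblast marker. Library totals ran from 402716 to 464418 FPKM, and relative depth, read from the steps of low values, from 1 to 1.18 times that of MSTN+/- replicate 1. The groups are called by their labels below, and nothing is attributed to MSTN, to cattle or to muscle. In RNA from a mixture of cells, fewer cells of a type and less RNA per cell cannot be told apart.

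The levels of the 10 genes spanned a wide range. In the MSTN+/- libraries Pkm was the most abundant, at 752 to 1371 FPKM, followed by Ldha at 397 to 801 FPKM and Slc2a1 at 49.4 to 240 FPKM. Pkm exceeded Ldha in 7 of 7 MSTN+/- and 3 of 3 wild-type libraries, and Ldha exceeded Slc2a1 in every library of both groups. Below them the ranges of neighbours overlapped in the order of the MSTN+/- means, which ran from Hk1 through Pfkl, Slc2a3, Pfkp, Pfkm and Hk2 to Ldhb. Hk2 and Ldhb, the lowest, were close, with Hk2 above Ldhb in 4 of 7 MSTN+/- libraries and 1 of 3 wild-type libraries. Together the 10 genes made up 0.297% to 0.632% of the summed FPKM of an MSTN+/- library and 0.404%, 0.616% and 0.733% of that of wild-type replicates 1, 2 and 3.

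**Figure D1:**
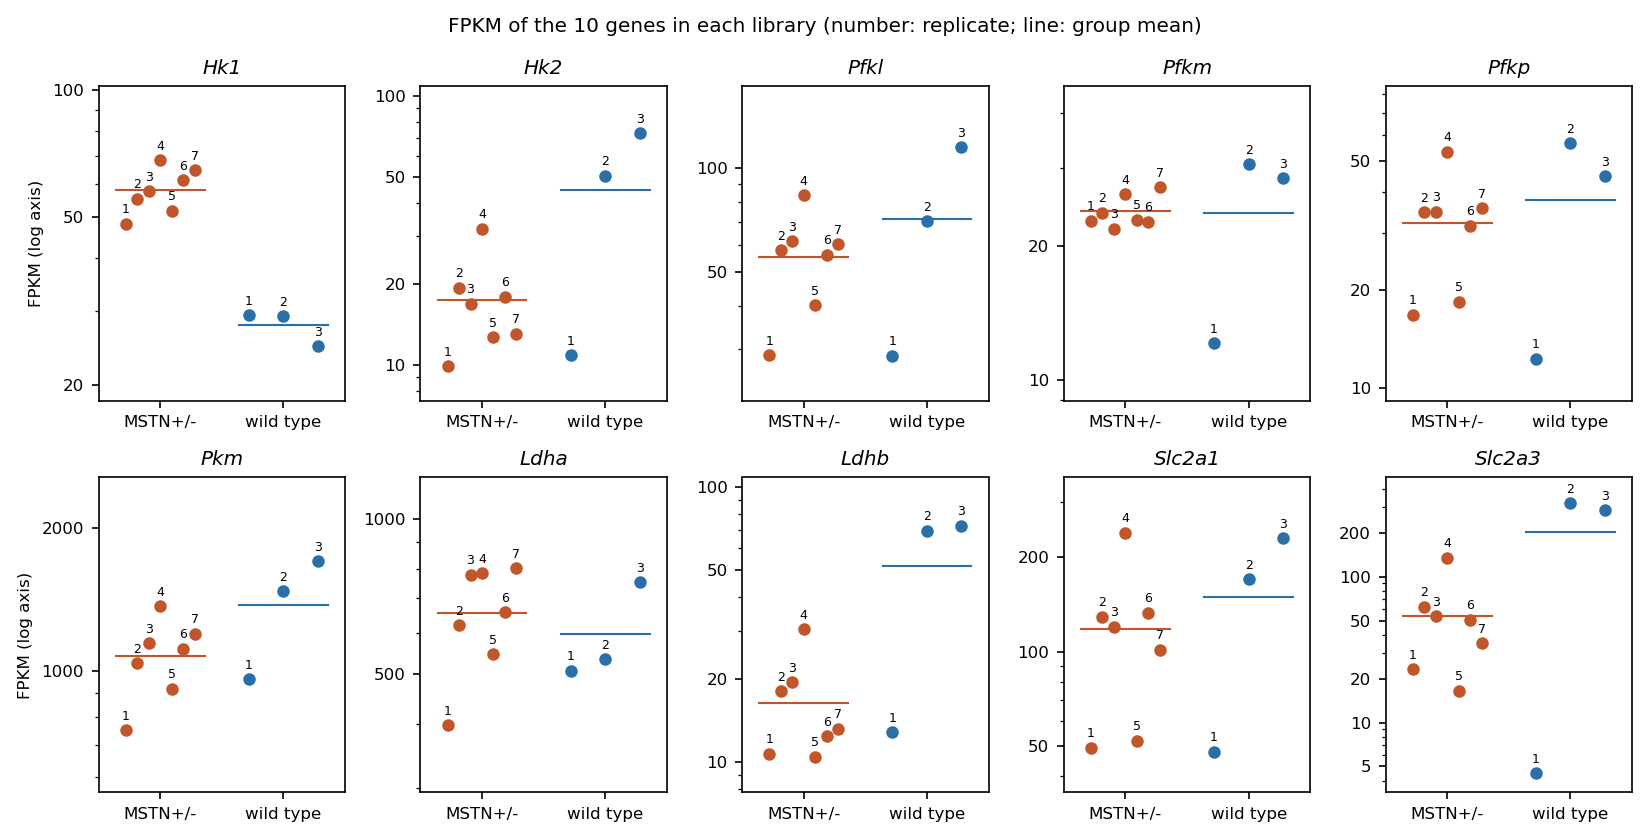
FPKM (log axis, a separate range in each panel) of the 10 genes in the 7 MSTN+/- libraries (left in each panel) and the 3 wild-type libraries (right). Each point is a library, numbered by replicate, and the line is the group mean. Only in the Hk1 panel do the groups not overlap, with MSTN+/- libraries at 48.2 to 68.3 FPKM and wild-type libraries at 24.7 to 29.3 FPKM.

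Across the labelled groups, 1 of the 10 genes rose in the libraries labelled MSTN+/-, Hk1, and 9 did not pass the threshold. Hk1 was also the only 1 of the 10 with no overlap between groups. In the fit over all genes (limma on log2(FPKM + 1), Benjamini-Hochberg adjusted p under 0.05), 31.8% of the 14047 genes tested were called higher and 12.8% lower. No member was called lower, and 1, Ldhb, had an unadjusted p under 0.05 in that direction. Groups did not overlap for 32.0% of all genes tested, with MSTN+/- libraries above for 25.2% and below for 6.86%. The median log2 change of the 10 genes was -0.23, against 0.17 for all genes tested. That shift of all genes became -0.01 with median-of-ratios scaling and -0.10 with quantile normalization, and the higher share of all calls became 50.1% and 42.7%, against 71.3% as deposited.

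The wild-type libraries did not form 1 group for these genes. Wild-type replicates 2 and 3 both lay above every MSTN+/- library for 5 of the 10 genes, Hk2, Pfkm, Pkm, Ldhb and Slc2a3. Wild-type replicate 1 lay below every MSTN+/- library for 6, Hk1, Pfkl, Pfkm, Pfkp, Slc2a1 and Slc2a3, and within their range for the other 4. The margin was small for Pfkl, at 28.67 FPKM against a lowest MSTN+/- value of 28.82 FPKM. For Slc2a1 it was 47.96 against 49.39 FPKM. No share over all genes is given for these counts, so they do not set the 10 genes apart from other genes. Without wild-type replicate 1, 5 members were called lower, Hk2, Pfkm, Pkm, Ldhb and Slc2a3, and Hk1 higher, where 31.9% and 42.2% of all genes were called lower and higher. Against wild-type replicate 1 alone, a fit that assumes this library varies like the others, 3 members were called higher, Hk1, Pfkm and Slc2a3, and 0 lower, where 33.7% and 10.8% of all genes were called higher and lower.

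**Figure D2:**
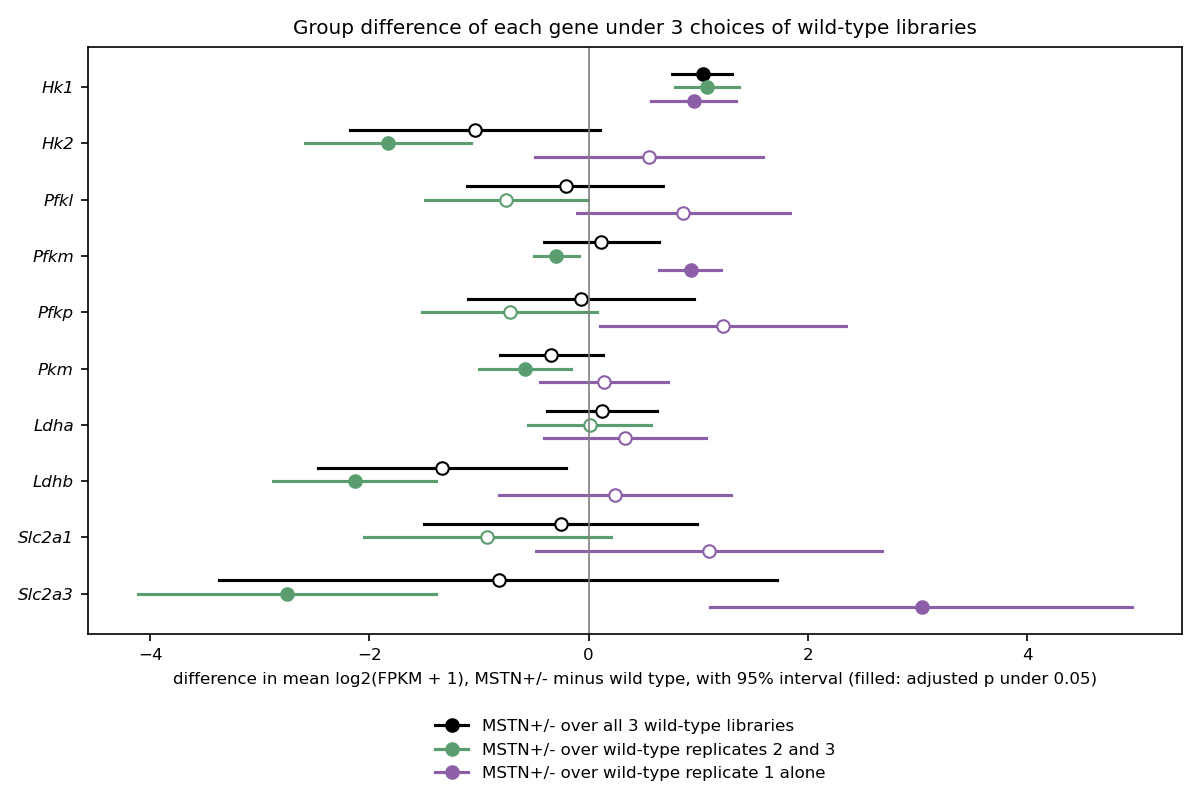
Difference in mean log2(FPKM + 1), MSTN+/- minus wild type, with its 95% interval from limma, for each of the 10 genes (rows) against all 3 wild-type libraries (black), wild-type replicates 2 and 3 (green) and wild-type replicate 1 alone (purple). Filled points have an adjusted p under 0.05. Hk1 is filled at 1.04, 1.08 and 0.96, while Slc2a3 lies at -0.82, -2.75 and 3.04.

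The transporters carry glucose into the cell. Slc2a3 encodes GLUT3, a transporter with high affinity for glucose that is best known from neurons and early embryos. It spanned 16.5 to 135 FPKM across the MSTN+/- libraries, with a median of 50.7 FPKM, against 4.48, 319 and 286 FPKM in replicates 1, 2 and 3 of the wild type. It was the most variable of the 10, with a ratio of highest to lowest of 8.14 among MSTN+/- libraries and 71.2 among wild-type libraries. Its log2 change over all libraries was -0.82 ± 1.14 (standard error; limma adjusted p = 0.575, 95% interval -3.37 to 1.72). The sign depended on the wild-type libraries used, at -2.75 without wild-type replicate 1 (limma adjusted p = 0.00213) and 3.04 against that library alone (limma adjusted p = 0.0180).

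Slc2a1 encodes GLUT1, the widespread basal transporter. It spanned 49.4 to 240 FPKM across the MSTN+/- libraries, with a median of 120 FPKM, against 48.0, 171 and 230 FPKM in replicates 1, 2 and 3 of the wild type. The groups overlapped, and the highest of all 10 libraries was MSTN+/- replicate 4. The log2 change was -0.25 ± 0.56 (standard error; limma adjusted p = 0.733, 95% interval -1.50 to 0.99), and it did not pass the threshold with either choice of wild-type libraries.

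The summed FPKM of both transporters was 68.5 to 374 in MSTN+/- libraries and 52.4, 490 and 516 in wild-type replicates 1, 2 and 3, and their proportions differed as well. Slc2a3 made up 24.1% to 35.9% of the summed FPKM of Slc2a1 and Slc2a3 in MSTN+/- libraries, with a median of 30.9%, and 8.54%, 65.1% and 55.4% in wild-type replicates 1, 2 and 3. Slc2a1 thus exceeded Slc2a3 in all 7 MSTN+/- libraries and in wild-type replicate 1, by 1.78 to 3.14 times and by 10.7 times, and was below it in wild-type replicates 2 and 3. The mean share was 29.8% ± 4.18 (SD, n = 7) in MSTN+/- libraries and 43.0% ± 30.3 (SD, n = 3) in wild-type libraries, and an exact two-sided permutation test gave p = 0.25 (adjusted over the 6 shares tested, 0.438). The smallest p this design allows is 0.00833, from 120 splits. Slc2a4, the insulin-responsive GLUT4 of muscle and fat, reached at most 0.61 FPKM in MSTN+/- libraries, against 0.64 FPKM in wild-type ones, and it stayed below the filter.

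**Figure D3:**
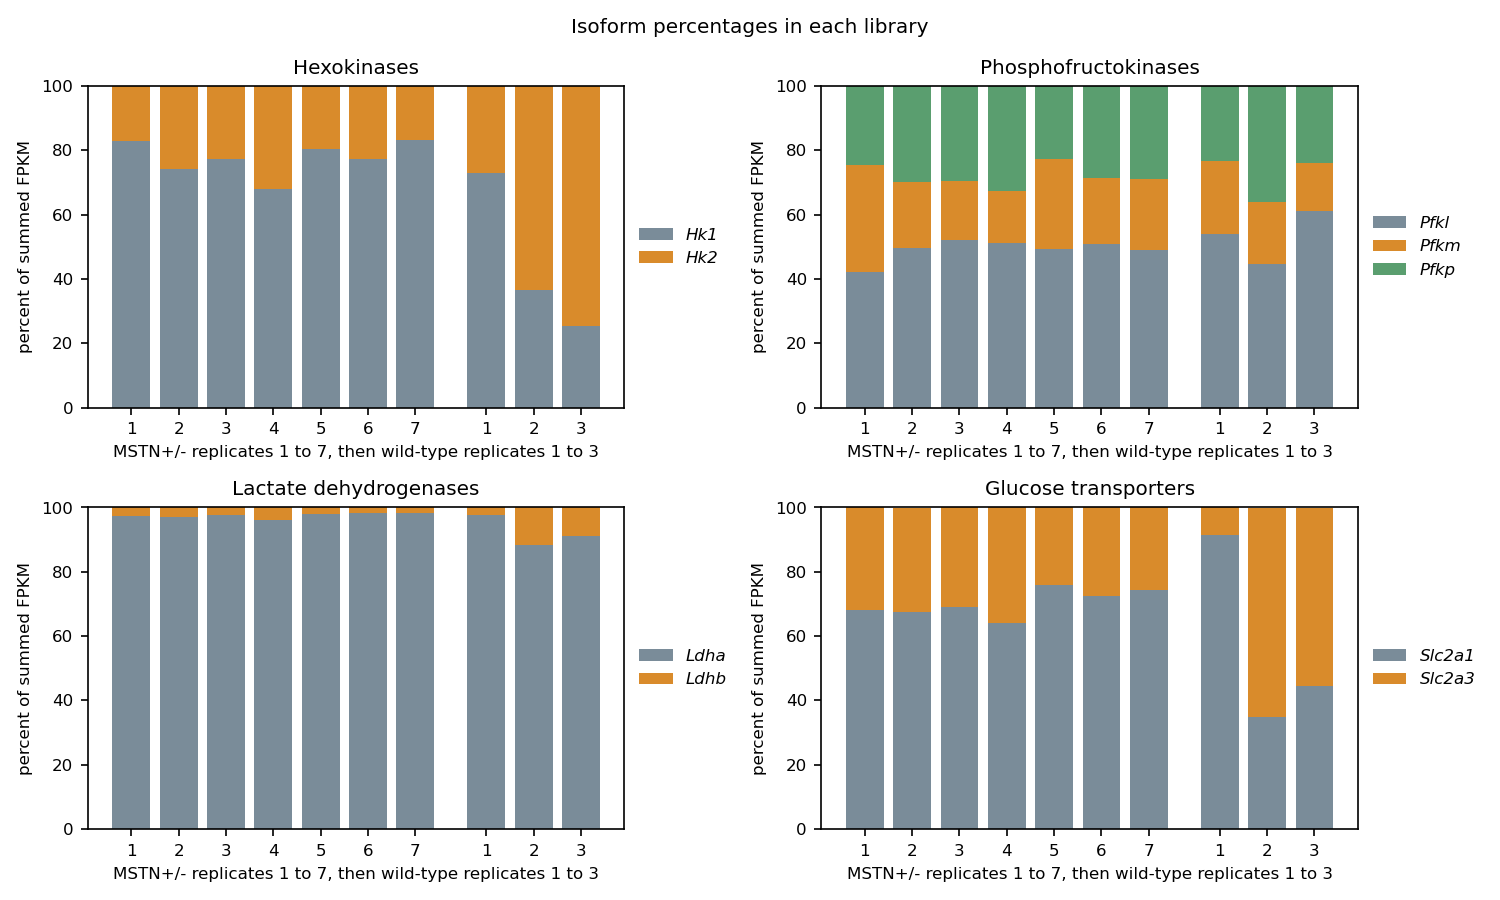
Percentage of the summed FPKM of each isoenzyme family (y axis) contributed by each isoform (colours) in MSTN+/- replicates 1 to 7 and wild-type replicates 1 to 3 (x axis). In wild-type replicates 2 and 3, Hk2 holds 63.5% and 74.6% of the hexokinase sum and Slc2a3 65.1% and 55.4% of the transporter sum, against at most 31.9% and 35.9% in MSTN+/- libraries.

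Hexokinases phosphorylate glucose as it enters the cell. Hk1, the form expressed in most tissues, spanned 48.2 to 68.3 FPKM across the MSTN+/- libraries, with a median of 57.6 FPKM, against 29.3, 29.1 and 24.7 FPKM in replicates 1, 2 and 3 of the wild type. Every MSTN+/- library lay above every wild-type library, and the wild-type libraries differed by a ratio of 1.18 from highest to lowest, the smallest among the 10 genes. The means were 58.1 ± 7.09 FPKM (SD) over the n = 7 MSTN+/- libraries, against 27.7 ± 2.57 FPKM (SD) over the n = 3 wild-type libraries, a log2 change of 1.04 ± 0.12 (standard error; limma adjusted p = 0.000130). Hk1 passed the threshold in all 16 alternative fits, at log2 changes of 0.83 to 1.14.

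Hk2, the insulin- and hypoxia-regulated form of muscle and of many tumours, did not pass the threshold over all libraries. It spanned 9.88 to 32.0 FPKM across the MSTN+/- libraries, with a median of 16.8 FPKM, against 10.9, 50.5 and 72.7 FPKM in replicates 1, 2 and 3 of the wild type. Wild-type replicate 1 lay within the MSTN+/- range and the other 2 above it. The log2 change was -1.04 ± 0.51 (standard error; limma adjusted p = 0.122, 95% interval -2.18 to 0.10), -1.83 without wild-type replicate 1 (limma adjusted p = 0.000702) and -1.91 with library weights (limma adjusted p = 0.0112). Leaving out wild-type replicate 2 or 3 gave -0.77 or -0.51 (limma adjusted p = 0.357 and 0.488), and the change against replicate 1 alone was 0.55 (limma adjusted p = 0.36).

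The sum of both hexokinases was 58.1 to 100.2 FPKM in MSTN+/- libraries, against 40.1, 79.5 and 97.4 FPKM in replicates 1, 2 and 3 of the wild type, so wild-type replicates 2 and 3 lay within the MSTN+/- range for the sum while their make-up differed. Hk2 held 16.8% to 31.9% of the sum in MSTN+/- libraries and 27.1%, 63.5% and 74.6% in the wild-type libraries. Hk1 exceeded Hk2 by 2.13 to 4.97 times in MSTN+/- libraries and by 2.70 times in wild-type replicate 1, and was the lower of the pair in wild-type replicates 2 and 3. The mean Hk2 share was 22.3% ± 5.35 (SD, n = 7) in MSTN+/- libraries and 55.1% ± 24.9 (SD, n = 3) in wild-type libraries, a difference of -32.7 points (exact permutation p = 0.0167, two-sided, 0.10 adjusted over the 6 shares).

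Phosphofructokinase catalyses the committed step, as tetramers of the liver (Pfkl), muscle (Pfkm) and platelet (Pfkp) subunits. Pfkl spanned 28.8 to 83.4 FPKM across the MSTN+/- libraries, with a median of 57.9 FPKM, against 28.7, 70.4 and 115 FPKM in replicates 1, 2 and 3 of the wild type. Pfkp spanned 16.8 to 53.3 FPKM across the MSTN+/- libraries, with a median of 34.7 FPKM, against 12.4, 56.6 and 44.8 FPKM in replicates 1, 2 and 3 of the wild type. Both overlapped between groups, and their log2 changes of -0.21 and -0.07 had standard errors of 0.40 and 0.46 (limma adjusted p = 0.684 and 0.912).

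Pfkm was the steadiest of the 10 among MSTN+/- libraries, at 21.9 to 27.2 FPKM, a ratio of 1.24 from highest to lowest. In replicates 1, 2 and 3 of the wild type it was at 12.1, 30.6 and 28.5 FPKM, the first below and the others above every MSTN+/- library. The log2 change over all libraries was 0.11 ± 0.24 (standard error; limma adjusted p = 0.718, 95% interval -0.41 to 0.64), and -0.09 with median-of-ratios scaling. It was -0.30 without wild-type replicate 1 (limma adjusted p = 0.0149) and 0.93 against that library alone (limma adjusted p = 0.000451), so both choices passed the threshold in opposite directions.

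Pfkl was the largest phosphofructokinase share in 10 of 10 libraries, at 42.1% to 52.0% in MSTN+/- libraries and 54.0%, 44.7% and 61.1% in wild-type replicates 1, 2 and 3. Pfkm held 16.1% to 33.3% in MSTN+/- libraries and 22.8%, 19.4% and 15.1% in the wild-type libraries. Its share was highest in MSTN+/- replicates 1 and 5, at 33.3% and 28.1%, the libraries of that group with the lowest Pfkl and Pfkp. Pfkp held 22.7% to 32.7% in MSTN+/- libraries and 23.3%, 35.9% and 23.8% in the wild-type libraries. Mean shares of Pfkl, Pfkm and Pfkp differed between groups by -4.10, 3.63 and 0.461 points (exact permutation p = 0.292, 0.367 and 0.908, two-sided, and 0.438, 0.440 and 0.908 adjusted over the 6 shares). Unlike the hexokinases and transporters, the leading phosphofructokinase was the same gene in all libraries.

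Pyruvate kinase makes pyruvate in the last step of glycolysis. Pkm encodes the M1 and M2 splice forms, which the single value per gene does not separate. It spanned 752 to 1371 FPKM across the MSTN+/- libraries, with a median of 1115 FPKM, against 962, 1471 and 1701 FPKM in replicates 1, 2 and 3 of the wild type. The log2 change was -0.34 ± 0.21 (standard error; limma adjusted p = 0.212, 95% interval -0.81 to 0.13), -0.58 without wild-type replicate 1 (limma adjusted p = 0.0177), -0.55 with median-of-ratios scaling (limma adjusted p = 0.0298) and 0.14 against it alone (limma adjusted p = 0.683). Pklr, the liver and red cell pyruvate kinase gene, was at most 0.08 FPKM in MSTN+/- libraries, against 0.34 FPKM in wild-type ones.

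Of 5 genes of RNA-binding proteins known to act on the splicing of Pkm, 3 fell, where 12.8% of all genes were called lower. The number was 5 with median-of-ratios scaling and 1 without wild-type replicate 3 or against replicate 1 alone. Ptbp1, which represses the exon of the muscle form, spanned 111 to 166 FPKM across the MSTN+/- libraries, against 211, 301 and 323 FPKM in replicates 1, 2 and 3 of the wild type (log2 change -0.85, standard error 0.16, limma adjusted p = 0.00226). The splicing factor genes Hnrnpa2b1 and Srsf3 had log2 changes of -0.70 and -0.79 (limma adjusted p = 0.0359 and 0.0220). Neither passed without wild-type replicate 2 (limma adjusted p = 0.120 and 0.109) or without replicate 3 (0.163 and 0.116), and against replicate 1 alone the 3 log2 changes were -0.47, -0.25 and -0.05, none past the threshold. Hnrnpa1, at 142 to 228 FPKM in MSTN+/- libraries, against 139, 344 and 388 FPKM in replicates 1, 2 and 3 of the wild type, did not pass (limma adjusted p = 0.153). Without 1 of MSTN+/- replicates 1, 3 and 6, Hnrnpa2b1 missed it as well (limma adjusted p = 0.0502 to 0.0618).

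Lactate dehydrogenase interconverts pyruvate and lactate, with Ldha the muscle-type and Ldhb the heart-type subunit. Ldha did not pass the threshold in the fit as deposited or in any of the 16 alternative fits. It spanned 397 to 801 FPKM across the MSTN+/- libraries, with a median of 659 FPKM, against 507, 533 and 752 FPKM in replicates 1, 2 and 3 of the wild type, all within the MSTN+/- range. The log2 change was 0.12 ± 0.23 (standard error; limma adjusted p = 0.687, 95% interval -0.38 to 0.62), and -0.10 with median-of-ratios scaling.

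Ldhb spanned 10.5 to 30.5 FPKM across the MSTN+/- libraries, with a median of 13.3 FPKM, against 12.9, 69.5 and 72.4 FPKM in replicates 1, 2 and 3 of the wild type. Wild-type replicate 1 lay within the MSTN+/- range and the other 2 above every MSTN+/- library. The log2 change of -1.34 had a standard error of 0.51 and missed the threshold (limma adjusted p = 0.0533, 95% interval -2.47 to -0.21). It passed in 5 of 16 alternative fits, with median-of-ratios scaling, quantile normalization, library weights, without MSTN+/- replicate 4 and without wild-type replicate 1, and was 0.24 against wild-type replicate 1 alone (limma adjusted p = 0.703).

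Ldha was the bulk of lactate dehydrogenase RNA in every library. Ldhb held 1.63% to 3.74% of the sum of both in MSTN+/- libraries and 2.48%, 11.5% and 8.78% in wild-type replicates 1, 2 and 3. The mean share was 2.43% ± 0.731 (SD, n = 7) in MSTN+/- libraries and 7.60% ± 4.65 (SD, n = 3) in wild-type libraries, a difference of -5.17 points (exact permutation p = 0.0333, two-sided, 0.10 adjusted over the 6 shares). Thus 0 of the 6 shares passed after adjustment, and 2, those of Hk2 and Ldhb, had an unadjusted p under 0.05. A single share at the smallest p this design allows would be adjusted to 0.05. Ldhc, the testis form, was at 0.32 FPKM or less in MSTN+/- libraries and was listed at 0, 2.09 and 3.07 FPKM in replicates 1, 2 and 3 of the wild type.

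The 7 MSTN+/- libraries also differed among themselves. Replicate 4 was the highest of them for 8 of the 10 genes, where 28.2% of all genes tested peaked in it, and replicate 7 for the other 2, Pfkm and Ldha. Replicate 1 was the lowest for 7 of the 10, where 16.8% of all genes tested were lowest in it, replicate 5 for Ldhb and Slc2a3, and replicate 3 for Pfkm. The ratio of highest to lowest was 8.14 for Slc2a3, 4.86 for Slc2a1, 3.24 for Hk2, 3.17 for Pfkp, 2.91 for Ldhb, 2.89 for Pfkl and 2.02 for Ldha, against 1.82 for Pkm, 1.42 for Hk1 and 1.24 for Pfkm. MSTN+/- replicate 4 also had the highest level of that group for 8 of the 10 pluripotency markers and the lowest summed fibroblast markers, 2855 FPKM. MSTN+/- replicate 1 was lowest for 2 pluripotency markers, Pou5f1 and Sox2, and MSTN+/- replicate 5 for 7, Nanog among them at 5.95 FPKM, against 11.3 FPKM in MSTN+/- replicate 1. The part of these markers in the levels of the 10 genes was not tested.

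**Figure D4:**
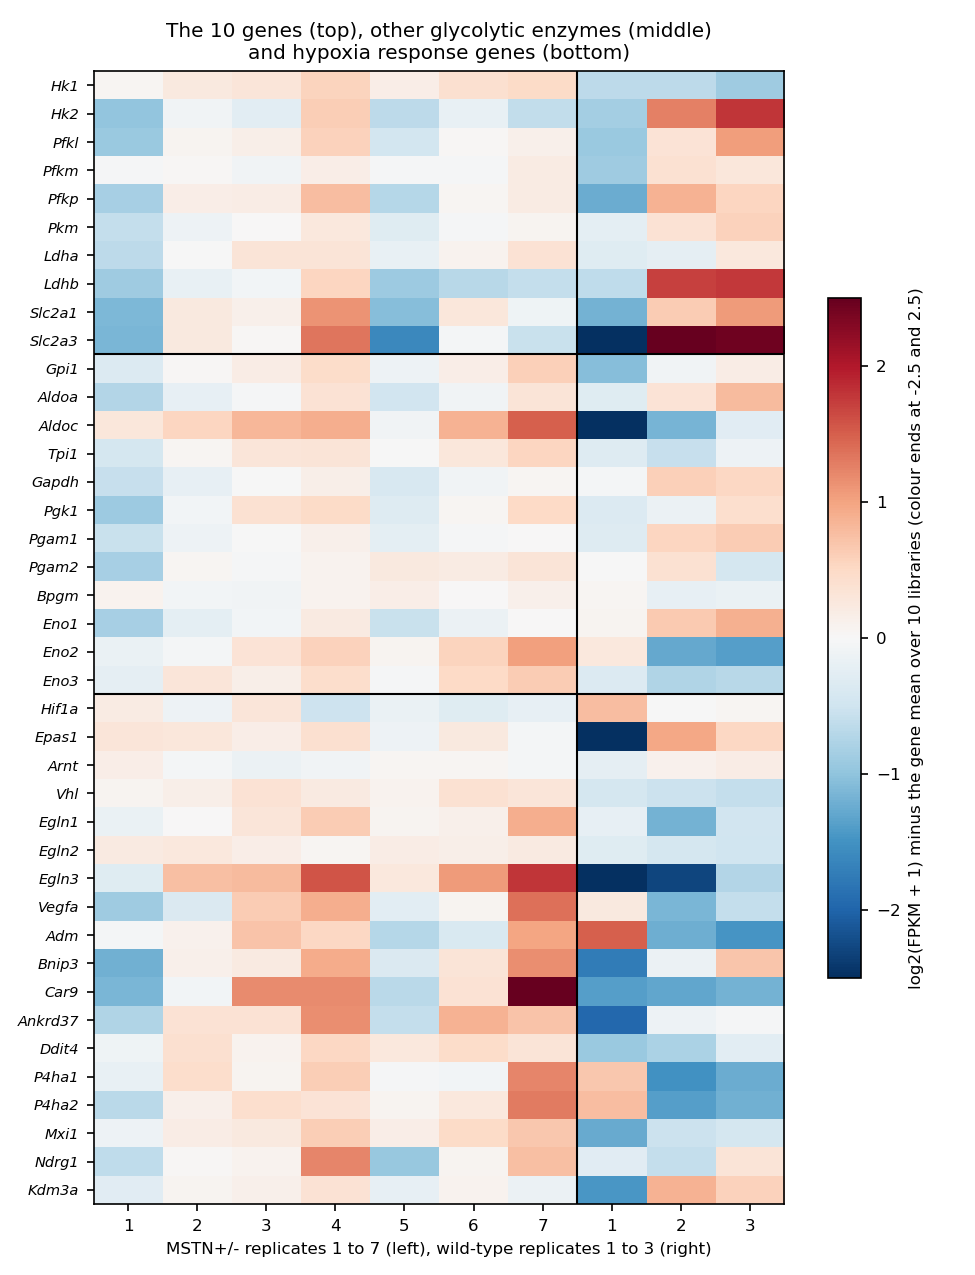
Heat map of log2(FPKM + 1) minus each gene's mean over the 10 libraries, for the 10 genes (top), the 12 other glycolytic enzymes tested (middle) and 18 hypoxia response genes (bottom), in MSTN+/- replicates 1 to 7 (left) and wild-type replicates 1 to 3 (right). Red is above and blue below the gene's mean. Slc2a3, Hk2 and Ldhb are high in wild-type replicates 2 and 3 and low in wild-type replicate 1, and MSTN+/- replicate 1 is the lowest of its group for 10 of the 12 other enzymes.

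Genes with patterns most like those of the members were sought for the members with a standard deviation of at least 1 in log2(FPKM + 1) over the 10 libraries, which were Slc2a3 (1.81) and Ldhb (1.01). Likeness was the root-mean-square difference of gene-centred log2 values. Nearest to Slc2a3 were Tfap2c, Mreg and Cbx7, at 0.26, 0.27 and 0.29. Tfap2c, for example, spanned 1.77 to 13.1 FPKM across the MSTN+/- libraries, against 0.03, 50.6 and 43.7 FPKM in replicates 1, 2 and 3 of the wild type. Nearest to Ldhb were Rbpms, Jade3 and Col18a1, at 0.19, 0.20 and 0.20, and among the members the nearest to Ldhb was Hk2, at 0.25.

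Of 14 other enzyme genes of the pathway, 13 had a row and 12 were tested, of which 3 rose, 1 fell and 8 did not pass the threshold (median log2 change 0.10), where 31.8% of all genes were called higher and 12.8% lower. The number lower was 0 without wild-type replicate 2 or 3, 4 without replicate 1 and 3 with median-of-ratios scaling. Aldoc, the brain aldolase gene, spanned 13.0 to 40.5 FPKM across the MSTN+/- libraries, against 0.41, 5.59 and 11.1 FPKM in replicates 1, 2 and 3 of the wild type (log2 change 2.30, standard error 0.56, limma adjusted p = 0.00833, but 1.12 and 0.0805 with library weights). Eno3, the muscle enolase gene, averaged 20.2 ± 4.28 FPKM (SD) over the n = 7 MSTN+/- libraries, against 10.6 ± 1.77 FPKM (SD) over the n = 3 wild-type libraries (limma adjusted p = 0.00514, but 0.105 with replicate 1 as the lone wild-type library). Eno1, the widespread enolase gene, averaged 890 ± 205 FPKM (SD) over the n = 7 MSTN+/- libraries, against 1522 ± 418 FPKM (SD) over the n = 3 wild-type libraries, with overlapping groups (limma adjusted p = 0.0253). Its call was lost without wild-type replicate 2 or 3 (limma adjusted p = 0.0939 and 0.124) and against replicate 1 alone, where the log2 change was -0.30 in place of -0.77.

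The abundant enzyme genes Gapdh, Aldoa, Gpi1, Pgk1, Pgam1 and Tpi1 did not pass, and each overlapped between groups. Aldoa, the muscle aldolase gene, spanned 529 to 1141 FPKM across the MSTN+/- libraries and 715 to 1531 FPKM in wild-type libraries, and Gpi1, of the second step, 284 to 547 FPKM in MSTN+/- libraries, against 172 to 411 FPKM in wild-type ones. Gapdh, the most abundant of the list, spanned 1916 to 3163 FPKM across the MSTN+/- libraries, against 2771, 4283 and 4087 FPKM in replicates 1, 2 and 3 of the wild type (log2 change -0.51, limma adjusted p = 0.0504). Several of these genes, like Ldha and Pkm, have processed pseudogenes in the mouse genome, and how reads were shared with them is not stated in the sources used here. Summed over the 8 members that are enzymes and the 13 other enzymes with a row, glycolysis took 1.16% to 2.19% of the FPKM of an MSTN+/- library and 1.77%, 2.36% and 2.66% of that of wild-type replicates 1, 2 and 3.

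**Figure D5:**
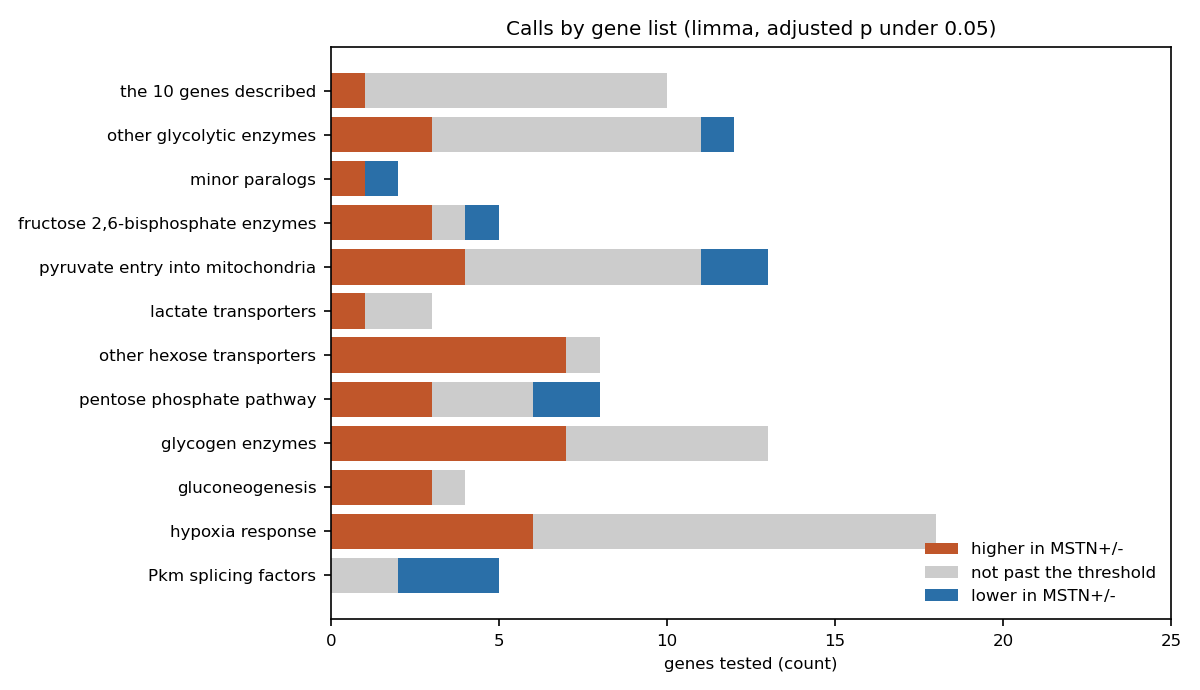
Number of genes tested (x axis) in each list (rows) that were higher in MSTN+/- libraries (orange), not past the threshold (grey) or lower (blue), in limma at an adjusted p under 0.05. Of the 10 genes described, 1 was higher, and of 8 other hexose transporters and regulators tested, 7 were, where 31.8% of all genes were. Among those 7, Slc2a12 and Slc2a9 were under 1 FPKM in every wild-type library and passed the filter on low values only through MSTN+/- libraries.

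Around the members, genes that steer glucose uptake and the fate of pyruvate moved in several directions. Of 8 tested genes of other hexose transporters and their regulators, 7 rose, where 31.8% of all genes were called higher (median log2 change 1.22). Slc2a12 and Slc2a6, minor facilitative transporter genes, had 5.16 ± 1.29 and 8.72 ± 1.66 FPKM (SD, n = 7) in MSTN+/- libraries and 0.223 ± 0.269 and 0.623 ± 0.950 FPKM (SD, n = 3) in wild-type libraries, below Slc2a1 and Slc2a3 in every MSTN+/- library. Slc5a2, a sodium-coupled glucose transporter gene, had a log2 change of 1.23 (limma adjusted p = 0.00241), which was 0.55 and not past the threshold against wild-type replicate 1 alone (0.0826). Txnip, which encodes a protein known to restrain glucose uptake, spanned 94.3 to 302 FPKM across the MSTN+/- libraries, against 19.5, 41.8 and 53.9 FPKM in replicates 1, 2 and 3 of the wild type.

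Of the 5 genes that set the level of the main allosteric activator of phosphofructokinase, 3 rose and 1 fell (median log2 change 0.45), where 31.8% and 12.8% of all genes were called higher and lower. With quantile normalization 0 were higher and 2 lower, and with median-of-ratios scaling, with library weights or without wild-type replicate 2, 1 was higher. Pfkfb3, its best-known producer in proliferating cells, had 8.46 ± 2.60 FPKM (SD) over the n = 7 MSTN+/- libraries, against 4.80 ± 0.818 FPKM (SD) over the n = 3 wild-type libraries (log2 change 0.67, limma adjusted p = 0.0348). That call was lost in 10 of 16 alternative fits, with adjusted p up to 0.277.

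Pyruvate entry into mitochondria had 4 genes higher, 2 lower and 7 not past the threshold (median log2 change -0.05), where 31.8% and 12.8% of all genes were called higher and lower. With median-of-ratios scaling 2 were higher and 5 lower, with quantile normalization 3 and 4, and without wild-type replicate 1, 3 and 5. Pdk2, a kinase that inhibits pyruvate dehydrogenase, had 19.6 ± 2.17 FPKM (SD) over the n = 7 MSTN+/- libraries, against 3.83 ± 0.837 FPKM (SD) over the n = 3 wild-type libraries, a log2 change of 2.10 (limma adjusted p = 1.973e-06). Mpc2, a subunit of the mitochondrial pyruvate carrier, had 19.8 ± 1.74 FPKM (SD) over the n = 7 MSTN+/- libraries, against 8.69 ± 4.66 FPKM (SD) over the n = 3 wild-type libraries. Dlat, a pyruvate dehydrogenase subunit, fell by 0.37 on the log2 scale (limma adjusted p = 0.0128), a call lost without wild-type replicate 2 (0.0515) and against replicate 1 alone (0.0689). The pyruvate dehydrogenase genes Pdha1 and Pdhb, whose log2 changes were -0.05 and -0.66, did not pass (limma adjusted p = 0.795 and 0.0788).

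Of 3 lactate transport genes tested, 1 rose, where 31.8% of all genes were called higher, so the count is near that share. The gene was Bsg, the chaperone of the lactate transporters, with 408 ± 103 FPKM (SD) over the n = 7 MSTN+/- libraries, against 255 ± 36.2 FPKM (SD) over the n = 3 wild-type libraries (limma adjusted p = 0.0267). It missed the threshold with median-of-ratios scaling (0.111), with library weights (0.160), without wild-type replicate 2 or 3 (0.116 and 0.0774) and against replicate 1 alone (0.272).

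Many of the members are known targets of the hypoxia response, and 18 other genes of that response were examined. Of these, 6 rose and 12 did not pass (median log2 change 0.73), where 31.8% of all genes were called higher. With library weights 3 rose, and without wild-type replicate 1, 9 rose and 2 fell. Egln3, an oxygen sensor gene that hypoxia induces, spanned 29.5 to 130 FPKM across the MSTN+/- libraries, against 4.08, 6.64 and 21.7 FPKM in replicates 1, 2 and 3 of the wild type (log2 change 2.82, standard error 0.52, limma adjusted p = 0.00183), and 1.72 with library weights (0.0618). Vhl and Egln2, which promote breakdown of the hypoxia-inducible factors, had log2 changes of 0.75 and 0.60 (limma adjusted p = 0.000394 and 0.000466). Bnip3, a mitophagy receptor gene, spanned 25.3 to 135 FPKM across the MSTN+/- libraries, against 17.1, 54.2 and 97.0 FPKM in replicates 1, 2 and 3 of the wild type. In the MSTN+/- group, 9 of the 18 genes peaked in replicate 7, where 18.4% of all genes tested did. Replicate 1 was lowest for 12 of the 18, where 16.8% of all genes tested were lowest in it. That library was also lowest for 7 of the 10 members, but 8 of the 10 peaked in replicate 4. A link between the hypoxia genes and the members was not tested.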

How the data were processed

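The 10 RNA-seq libraries are held in 1 table with a value per gene and library. Per the file headers, the deposited values are FPKM, which the authors computed. The aligner, the genome build and the annotation are not stated in the sources used here. Read counts were not used here, and sequencing depth is known only in relative terms, from the steps between low values of 67 to 161 genes with a single transcript per library, searched between 0.25 and 4 times the depth of MSTN+/- replicate 1. All 10 value columns were used.

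Libraries were grouped by their labels, and replicates were numbered in record order. Values were analysed as log2(FPKM + 1), which understates changes of low genes. Genes with at least 1 FPKM in at least 3 libraries were fitted with limma 3.58.1 in R 4.3.3 (trended variance, no covariate, 8 residual degrees of freedom), and p-values were adjusted by Benjamini-Hochberg over all 14047 genes at a threshold of 0.05. A gene high only in MSTN+/- libraries can pass this filter more easily than a gene high only in wild-type ones, which must reach 1 FPKM in all 3. The percentage of each isoform in its family's summed FPKM was compared with an exact two-sided permutation test over libraries by full enumeration (Python 3.11.15, numpy 2.4.6) and adjusted over the 6 shares. The limma fit was tested on simulated data with known changes, in which each gene had the same spread in every library. That simulation held no library standing apart, as wild-type replicate 1 does here. The permutation test was checked on constructed values only, with separated groups and with constant values.

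The alternatives were median-of-ratios scaling, quantile normalization, a pseudocount of 0.1, no filter on low values, library weights, leaving out each library in turn, and wild-type replicate 1 alone as the comparison, and for shares also the minor paralogs in the denominator and log2 ratios. The library weights were 0.787 to 4.77 in MSTN+/- libraries and 0.0364, 0.100 and 0.896 in wild-type replicates 1, 2 and 3. Among the wild-type libraries the weighted fit therefore rests mostly on replicate 3. The members and gene lists were chosen with earlier results of these data known. From each list the text names every gene past the threshold where 3 or fewer passed. Otherwise it names the 3 with the smallest p among those averaging at least 5 FPKM in a group. Genes reaching 100 FPKM in a library are named as well, some of them without their levels. The identity of the libraries was checked with marker lists. Besides those given with the results, the summed levels of 6 macrophage markers were 4.65 to 15.1 FPKM in MSTN+/- libraries, against 17.1, 12.1 and 12.4 FPKM in replicates 1, 2 and 3 of the wild type. Of these 6, 2 were below wild-type replicates 2 and 3 in every MSTN+/- library and 2 above both. The summed levels of other lists were as follows. Those of 4 endothelium markers were 19.0 to 28.6 FPKM in MSTN+/- libraries, against 2.97, 28.8 and 25.7 FPKM in replicates 1, 2 and 3 of the wild type, from different genes: Tek was at 15.8 to 23.6 FPKM in MSTN+/- libraries, against 0.66, 2.24 and 1.37 FPKM in the wild-type ones, and Pecam1 at 0.09 to 5.75 FPKM in MSTN+/- libraries, against 0.06, 26.4 and 24.3 FPKM in the wild-type ones. Those of 4 epithelium markers were 64.3 to 146 FPKM in MSTN+/- libraries, against 5.04, 220 and 370 FPKM in replicates 1, 2 and 3 of the wild type. In every MSTN+/- library 2 of these 4 were below wild-type replicates 2 and 3 and 1 above both. Cdh1 was at 11.3 to 28.9 FPKM in MSTN+/- libraries, against 0.06, 100 and 158 FPKM in the wild-type ones. Krt8 was at 26.8 to 68.4 FPKM in MSTN+/- libraries, against 0.36, 9.81 and 25.5 FPKM in the wild-type ones. Markers of erythrocytes and of adipocytes summed to at most 0.65 FPKM in every library of both groups.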

Additional observations from a re-analysis of the deposited data

Results flagged for a closer look

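Among 58 sets of 7 MSTN+/- values, 8 had a library far from the other 6 by Dixon's test at its 95% critical value. That test assumes normal values, while the flagged ones are FPKM or a percentage, not log2 values. The sets also share the same 7 libraries, so the 8 cannot be set against a rate expected by chance. Of the members, 2 were among them in the same library, MSTN+/- replicate 4. Hk2 was at 32.0 FPKM there, with the nearest of the other MSTN+/- libraries at 19.3 FPKM. Slc2a3 was at 134.6 FPKM in it, with the nearest at 62.4 FPKM. The pentose phosphate enzyme gene Tkt was at 107 FPKM in that library too, with the nearest at 89.3 FPKM. In MSTN+/- replicate 1 the Pfkl share of the 3 phosphofructokinases was 42.1%, with the nearest at 48.9%. MSTN+/- replicate 7 held the remaining 4. Txnip was at 302 FPKM in it, with the nearest at 157 FPKM. Ptbp1 was at 111 FPKM, with the nearest at 151 FPKM, and Srsf3 at 51.5 FPKM, with the nearest at 70.0 FPKM. Dlat was at 15.8 FPKM, with the nearest at 18.6 FPKM.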

How the results depend on the processing

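No paired analysis was possible because the replicate numbers follow record order and do not come from the labels. The call of Hk1 held in all 16 alternative fits. Of the 10 members, 1 was higher and 0 were lower as deposited, and 3 were higher against wild-type replicate 1 alone. Lower members numbered 2 with median-of-ratios scaling, 1 with quantile normalization, 2 with library weights, and 0 to 5 when 1 library was left out (5 without wild-type replicate 1, 1 without MSTN+/- replicate 4). Over all genes, 4468 higher calls became 2874 with quantile normalization, and 1800 lower calls became 3234 with median-of-ratios scaling, 3851 with quantile normalization, 3368 with library weights and 791 to 4449 when 1 library was left out (4449, 793 and 791 without wild-type replicates 1, 2 and 3). The log2 change of Pfkm ranged from -0.30 to 0.34 when 1 library was left out, that of Slc2a3 was 3.04 against wild-type replicate 1 alone, and that of Ldhd was -0.02 with quantile normalization (limma adjusted p = 0.925, against 0.67 as deposited). The permutation design leaves the isoform shares little room to pass after adjustment. Without wild-type replicate 1 the shares of Hk2, Ldhb and Slc2a3 were all at the smallest p of 36 splits, 0.0278, and were adjusted to 0.0556, and against wild-type replicate 1 alone 8 splits allow no p under 0.125.

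The median log2 changes of several lists moved. For minor paralogs (0.14) the median was -0.01 with median-of-ratios scaling, -0.23 with quantile normalization, 0.45 with a pseudocount of 0.1, -0.03 with no filter and 0.38 against wild-type replicate 1 alone. For pyruvate entry (-0.05) it was -0.26, -0.17 and -0.14 with median-of-ratios scaling, quantile normalization and library weights, -0.15 to 0.01 when 1 library was left out and 0.19 against wild-type replicate 1 alone. For the pentose phosphate pathway (-0.03) it was -0.23 with median-of-ratios scaling, 0.16 with library weights, -0.15 to 0.09 when 1 library was left out and 0.17 against wild-type replicate 1 alone. For other hexose transporters (1.22) it was 0.67 with quantile normalization, 1.91 with a pseudocount of 0.1 and 0.75 with no filter. Quantile normalization gave -0.04 for the fructose 2,6-bisphosphate enzymes (0.45) and 0.18 for glycogen enzymes (0.47). Gluconeogenesis (1.66) had 0.56 with no filter, 1.25 against wild-type replicate 1 alone and 1.90 with library weights, and Pkm splicing factors (-0.70) had -0.25 against that library. The cause was not tested for any of these. With 3 wild-type libraries, 1 of them unlike the others, group means rest on few values, and the FPKM carry no counting error.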

Other observations

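Neighbouring routes of glucose carbon were also measured. Of 13 glycogen enzyme genes tested, 7 rose in MSTN+/- libraries and 6 did not pass the threshold (median log2 change 0.47), where 31.8% of all genes were called higher. With median-of-ratios scaling 3 were higher and 1 lower, with quantile normalization 3 and 2, and against wild-type replicate 1 alone 3 and 1. With library weights or without wild-type replicate 2, 4 were higher. Gbe1, the glycogen branching enzyme gene, averaged 10.6 ± 1.90 FPKM (SD) over the n = 7 MSTN+/- libraries, against 2.87 ± 0.601 FPKM (SD) over the n = 3 wild-type libraries, with no overlap (log2 change 1.57, limma adjusted p = 4.307e-05). Pygl, the liver glycogen phosphorylase gene, spanned 2.07 to 14.7 FPKM across the MSTN+/- libraries, against 1.23, 1.20 and 1.27 FPKM in replicates 1, 2 and 3 of the wild type (limma adjusted p = 0.00849), a call lost against wild-type replicate 1 alone (0.0700) and under library weights (0.0972). Phka2, a phosphorylase kinase subunit gene, averaged 8.41 ± 1.69 FPKM (SD) over the n = 7 MSTN+/- libraries, against 4.68 ± 0.626 FPKM (SD) over the n = 3 wild-type libraries (limma adjusted p = 0.00814), a call lost against wild-type replicate 1 alone (0.0722), under library weights (0.171) and after quantile normalization (0.149). Pygm, the muscle phosphorylase gene, stayed below the filter on low values.

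Of 4 gluconeogenesis genes tested, 3 rose and 1 did not pass (median log2 change 1.66), where 31.8% of all genes were called higher. Pcx, the pyruvate carboxylase gene, spanned 21.7 to 37.9 FPKM across the MSTN+/- libraries, against 5.91, 5.32 and 3.83 FPKM in replicates 1, 2 and 3 of the wild type (log2 change 2.24, limma adjusted p = 2.534e-05). Fbp2, the muscle fructose bisphosphatase gene, spanned 4.23 to 8.16 FPKM across the MSTN+/- libraries and was listed at 0, 0.78 and 0.08 FPKM in replicates 1, 2 and 3 of the wild type. Fbp2 thus passed the filter on low values only through the group where it was high, which limits what the count of 3 shows. G6pc3, a widespread glucose-6-phosphatase gene, averaged 27.2 ± 2.52 FPKM (SD) over the n = 7 MSTN+/- libraries, against 13.0 ± 5.44 FPKM (SD) over the n = 3 wild-type libraries (limma adjusted p = 0.00153). In these 3 genes wild-type replicate 1 lay below every MSTN+/- library, as did wild-type replicates 2 and 3.

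Of the 8 pentose phosphate pathway genes, 3 were higher, 2 lower and 3 not past the threshold (median log2 change -0.03), where 31.8% and 12.8% of all genes were called higher and lower. The number lower was 0 without wild-type replicate 2 or 3, 1 without any 1 of MSTN+/- replicates 1, 2, 5, 6 and 7 or against wild-type replicate 1 alone, and 4 without wild-type replicate 1 or with median-of-ratios scaling. Pgls, the lactonase gene of the oxidative branch, averaged 110 ± 8.60 FPKM (SD) over the n = 7 MSTN+/- libraries, against 50.4 ± 10.7 FPKM (SD) over the n = 3 wild-type libraries (log2 change 1.13, limma adjusted p = 9.257e-05). G6pdx, which encodes the first enzyme of that branch, averaged 67.9 ± 8.02 FPKM (SD) over the n = 7 MSTN+/- libraries, against 40.7 ± 3.33 FPKM (SD) over the n = 3 wild-type libraries. Rpia, the ribose phosphate isomerase gene, averaged 9.61 ± 0.652 FPKM (SD) over the n = 7 MSTN+/- libraries, against 4.34 ± 0.992 FPKM (SD) over the n = 3 wild-type libraries. Tkt, the transketolase gene of the other branch, spanned 76.0 to 107 FPKM across the MSTN+/- libraries, against 79.0, 206 and 215 FPKM in replicates 1, 2 and 3 of the wild type, the first of which lay within the MSTN+/- range. Taldo1, the transaldolase gene, spanned 56.8 to 77.1 FPKM across the MSTN+/- libraries, against 58.3, 132 and 119 FPKM in replicates 1, 2 and 3 of the wild type, and Pgd, the second dehydrogenase gene, 73.3 to 101 FPKM in MSTN+/- libraries, against 90.2, 123 and 108 FPKM in replicates 1, 2 and 3 of the wild type. Neither of these last genes passed the threshold.

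Of 8 minor paralogs of the members, 2 passed the filter. Of these, 1 was called higher and 1 lower, where 31.8% and 12.8% of all genes were. Adpgk, the gene of a kinase that phosphorylates glucose with ADP, averaged 22.0 ± 1.80 FPKM (SD) over the n = 7 MSTN+/- libraries, against 29.5 ± 2.96 FPKM (SD) over the n = 3 wild-type libraries, with no overlap (log2 change -0.40, limma adjusted p = 0.0119), a call lost without wild-type replicate 2 (0.0535) or 3 (0.0526) and against replicate 1 alone (0.170). Ldhd, the D-lactate dehydrogenase gene, averaged 1.51 ± 0.187 FPKM (SD) over the n = 7 MSTN+/- libraries, against 0.590 ± 0.294 FPKM (SD) over the n = 3 wild-type libraries (limma adjusted p = 0.00480), a call lost with library weights (0.0918) and with quantile normalization, where its log2 change was -0.02. Ldhd passed the filter on low values only through the group where it was high, which limits what its call shows.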
